A study of Mus musculus with 21 samples.

Results

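Elastic fibre and matrix crosslinking genes were followed in mouse lung as a set of 10 genes chosen by name: elastin (Eln), the microfibril proteins Fbn1, Mfap4, Mfap5 and Ltbp2, the fibulins Fbln2 and Fbln5, and the lysyl oxidases Lox, Loxl1 and Loxl2. These genes and the related lists were chosen with earlier results of these data known, so counts of those that passed are not independent evidence. All 10 were among the 23238 gene symbols in the deposited counts, and all 10 were among the 14727 genes that passed the filter on low counts and were tested. Elastic fibres give lung tissue its recoil. Tropoelastin, the soluble product of Eln, is laid down on a scaffold of fibrillin microfibrils with the help of fibulins, and lysyl oxidases then join the chains into an insoluble polymer. The same enzymes crosslink collagen, and most elastin of the lung is made during development, with little turnover in the healthy adult.

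The study gave C57BL/6 mice 50 µL of fluid into the trachea once a day for 14 days, and lungs were taken on day 15, after lavage. The 7 groups were saline, 10% ethanol, propylene glycol (PG, a carrier of vaping liquids) at 826 or 1100, and vitamin E acetate (VEA, an oil added to some of them) at 3.12, 6.25 or 12.5, with 3 libraries in each. The labels name saline as the control for PG and 10% ethanol as the control for VEA, and do not say what VEA was given in. Doses carry mg/kg in the labels and mg/mL in the description of the series, so the numbers stand here without a unit. Each lung gave 1 library of 3′ end tags, a method that reads the end of each transcript, from 500 ng of total RNA. Libraries are named by group and the number in their label. The labels number the libraries and do not describe the animals further, so p-values measure only the spread between these libraries, part of which may be technical.

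Total counts were 8778028 to 11783151 per library, with 14843 to 15992 genes detected. Haemoglobin symbols held 6.49% to 13.8% of counts in saline, the most in saline 8, and 4.54% to 5.53% in PG 1100. They held 8.49% to 10.5% in ethanol and 4.06% to 5.13% in VEA 12.5. Counts of the 10 genes ranged from 26 to 119 per library for Fbln2, the gene with the fewest, and from 1432 to 11065 for Eln. Levels are CPM, the share of a library's counts on a common scale, after TMM, a library scaling that assumes most genes are unchanged, and are given as mean ± SD (n = 3). Differences are log2 fold changes ± SE of 1 edgeR quasi-likelihood model over all 21 libraries, and a gene is said to have risen or fallen at a Benjamini-Hochberg adjusted p under 0.05 over all genes tested. CPM of these tags is not scaled by transcript length, and the level of each of the 10 genes is compared between groups and not with other genes. The library VEA 6.25 number 65 stood apart from the rest on the second principal component, and results were recomputed without it and without saline 8 and ethanol 13, the libraries with the fewest detected genes. Lung epithelial, endothelial, fibroblast and macrophage markers were detected in every library, and Matn1, a cartilage marker, had no count in any.

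PG at 1100 was followed by a rise of 7 of the 10 genes and a fall of none, against 7.31% of all genes tested that passed in either direction and 4.09% that rose. The risers were Eln, Fbn1, Mfap5, Ltbp2, Lox, Loxl1 and Loxl2, and the median log2 fold change of the 10 was 1.08. For 9 of the 10, all but Fbln5, every PG 1100 library lay above every saline library, a separation seen upward in 10.1% of genes tested. PG at 826 was followed by a rise of Lox alone, with 0.136% of all genes passing and 0.0951% rising, and the median of the 10 was 0.42. The 826 and saline libraries were separated upward for 4 of the 10 genes, against 7.27% of genes. Between the PG doses 5 of the 10 were higher at 1100 (Eln, Fbn1, Mfap5, Ltbp2 and Loxl2), none was lower, and 5.55% of all genes passed, 2.85% upward. The libraries of the PG doses were separated upward for 6 of the 10, the same 5 and Mfap4, against 9.93% of genes.

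VEA was compared with 10% ethanol, its labelled control. At 3.12, 2 of the 10 rose, Eln and Lox, where 5.51% of all genes passed and 3.42% rose. At 6.25, 4 rose and 1 fell, where 5.76% of genes passed, 3.51% upward and 2.25% downward. At 12.5 again 4 rose and 1 fell, where 9.71% passed, 5.48% upward and 4.23% downward. At both of these doses the risers were Eln, Lox, Ltbp2 and Mfap4, and the gene that fell was Fbln2. The medians of the 10 were 0.40, 0.49 and 0.47 in order of dose, while the median of all genes lay between -0.014 and 0.0077 in every comparison of groups here. Every VEA library lay above every ethanol library for 4, 7 and 6 of the 10, against 12.9%, 12% and 15.3% of genes. The PG doses share the saline libraries and the VEA doses share the ethanol libraries, so counts from the same control are not independent of each other.

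**Figure D1:**
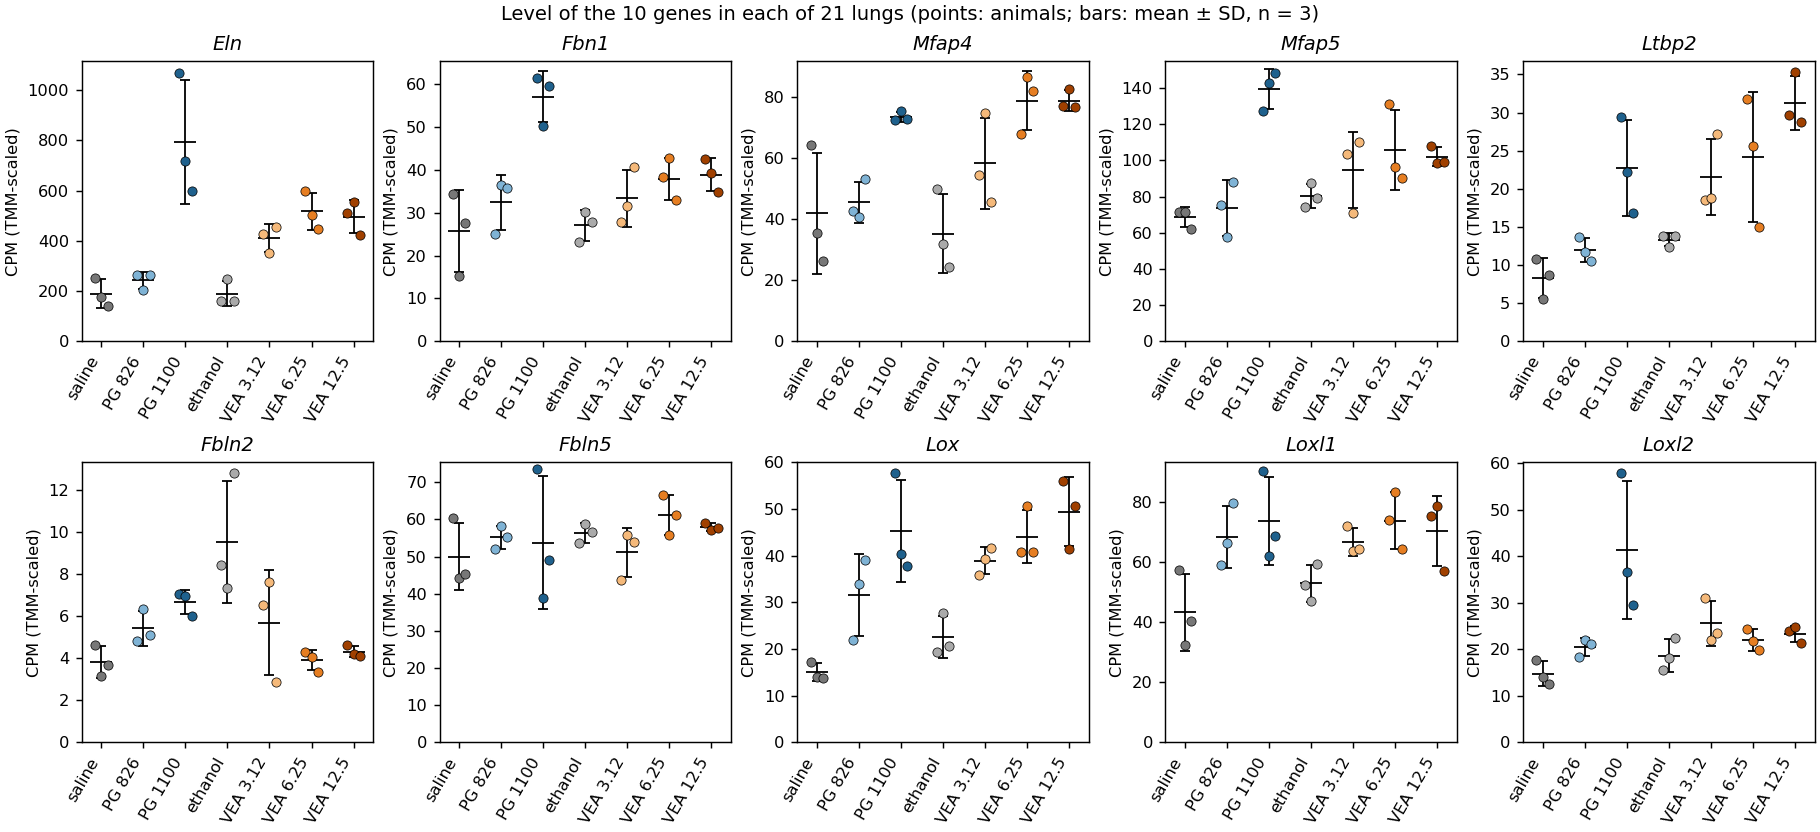
Level of each of the 10 genes (vertical axis, TMM-scaled CPM) in the 7 groups (horizontal axis), with each point 1 library and bars the mean ± SD of 3. Eln lies between 139 and 264 CPM in the saline, ethanol and PG 826 libraries and between 351 and 1069 CPM in all others, while each dosed group overlaps its control for Fbln5.

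Eln encodes tropoelastin, the monomer of the elastic core (chromosome 5, 134702593 to 134747323 on GRCm38, minus strand). Its level was 253, 175 and 139 CPM in saline 6, 8 and 10, and 1069, 716 and 597 CPM in PG 1100 libraries 27, 28 and 30. The lowest PG 1100 library was more than the highest saline library, and the groups did not overlap. The log2 fold change was 2.07 ± 0.23 (edgeR adjusted p = 2.86e-06), or 4.2-fold. In PG 826 libraries 22, 23 and 25 Eln stood at 263, 203 and 264 CPM, within reach of saline, and the difference did not pass (0.36 ± 0.22, adjusted p = 0.651). The step from 826 to 1100 was 1.71 ± 0.23 (adjusted p = 5.91e-05).

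In the ethanol libraries 12, 13 and 14 Eln was at 159, 248 and 162 CPM, close to saline (0.01 ± 0.22, adjusted p = 0.999). All 9 VEA libraries lay above these. VEA 3.12 libraries 56, 57 and 59 held 428, 351 and 457 CPM, a rise of 1.12 ± 0.22 (adjusted p = 0.00358). VEA 6.25 libraries 63, 64 and 65 held 598, 504 and 449 CPM, a rise of 1.45 ± 0.22 (adjusted p = 0.00032). VEA 12.5 libraries 66, 68 and 70 held 509, 553 and 424 CPM, a rise of 1.38 ± 0.22 (adjusted p = 0.000236). The libraries of the VEA doses overlapped, and no step between VEA doses passed for Eln, the interval of 12.5 against 3.12 being -0.19 to 0.72. In order of means the groups ran from PG 1100 (794 ± 246) through VEA 6.25 (517 ± 75.4), VEA 12.5 (496 ± 65.5) and VEA 3.12 (412 ± 55.0) to PG 826 (243 ± 34.7), ethanol (189.9 ± 50.5) and saline (189.2 ± 58.0 CPM). Neighbours in that order overlapped in range except VEA 3.12 and PG 826. The Eln calls in PG 1100 and at all VEA doses held under every alternative tried.

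Fbn1 encodes fibrillin-1, the main building block of microfibrils (chromosome 2, 125300594 to 125507993, minus strand). It measured 34.2, 15.3 and 27.6 CPM in the saline libraries and 61.3, 50.2 and 59.5 CPM after PG 1100. All PG 1100 libraries exceeded all others in the series for Fbn1, the next group being VEA 12.5 at 42.6, 39.2 and 34.8 CPM. The rise over saline was 1.14 ± 0.21 (edgeR adjusted p = 0.00025). Over PG 826, with 25.0, 36.5 and 35.7 CPM, the rise was 0.81 ± 0.20 (adjusted p = 0.0119), and without PG 826 library 22 it no longer passed (0.66, adjusted p = 0.0884). Against ethanol, with 23.1, 30.2 and 27.7 CPM, no VEA dose passed: the differences were 0.30 ± 0.21, 0.49 ± 0.21 and 0.53 ± 0.21 from the lowest to the highest dose (adjusted p = 0.462, 0.175 and 0.106).

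Mfap5 encodes a microfibril-associated glycoprotein that binds fibrillins (chromosome 6, 122505845 to 122529290, plus strand). Saline libraries held 71.6, 71.7 and 62.1 CPM, PG 826 libraries 75.2, 57.8 and 88.1 CPM, and PG 1100 libraries 127, 143 and 148 CPM. The PG 1100 libraries were thus clear of both. The rise was 1.03 ± 0.16 over saline (edgeR adjusted p = 3.59e-05) and 0.92 ± 0.16 over PG 826 (adjusted p = 0.000294), and both calls held under every alternative. After VEA the level was higher than in ethanol by 0.24 ± 0.16, 0.40 ± 0.16 and 0.34 ± 0.16 at the rising doses, and none passed (adjusted p = 0.451, 0.151 and 0.193). The VEA 12.5 libraries, at 108, 98.6 and 99.2 CPM, nevertheless all lay above the ethanol libraries, at 74.3, 87.5 and 79.3 CPM. Set against saline, a control chosen after seeing the data, Mfap5 rose at VEA 6.25 and 12.5 (edgeR adjusted p = 0.0138 and 0.0154). It did not pass at 3.12 (adjusted p = 0.0779).

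Mfap4 encodes a microfibril-associated protein that binds tropoelastin and fibrillin (chromosome 11, 61485431 to 61488900, plus strand). Its control libraries were spread widely, at 64.3, 35.6 and 26.3 CPM in saline and 49.8, 31.9 and 24.4 CPM in ethanol. Libraries were close together in PG 1100, at 72.6, 75.4 and 72.8 CPM, and in VEA 12.5, at 77.1, 82.9 and 76.8 CPM, and spread again in VEA 3.12, at 54.4, 74.9 and 45.8 CPM. Mfap4 rose at VEA 6.25 (68.1, 86.6 and 82.0 CPM) by 1.16 ± 0.26 (edgeR adjusted p = 0.0103) and at VEA 12.5 by 1.16 ± 0.26 (adjusted p = 0.0057). The difference at PG 1100 was 0.81 ± 0.26 and missed the threshold (adjusted p = 0.0632), although the groups did not overlap. It passed with DESeq2 (adjusted p = 0.0169), limma-voom (0.00906) and no filter on low counts (5.61e-05), and without saline 6 (1.26, adjusted p = 0.000294). VEA 3.12 (0.72 ± 0.26, adjusted p = 0.119) passed with DESeq2 (0.0488), with no filter (0.000785) and without ethanol 12 (1.05, adjusted p = 0.0158), and VEA 6.25 was lost without ethanol 13 (1.09, adjusted p = 0.0601). Without saline 8, ethanol 13 and VEA 65 together neither VEA call of Mfap4 passed (adjusted p = 0.17 at 6.25 and 0.0591 at 12.5). The annotated end of Mfap4 overlaps Mapk7 on the opposite strand, and the strand setting of the counting is not given in the sources used here.

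Ltbp2 encodes a microfibril protein of the family that holds latent TGF-beta, although it is best known as a binding partner of fibulin-5 (chromosome 12, 84783212 to 84876532, minus strand). Its libraries held 10.8, 5.60 and 8.66 CPM after saline and 29.4, 22.1 and 16.8 CPM after PG 1100. These groups did not overlap, and the rise was 1.44 ± 0.26 (edgeR adjusted p = 0.000209). Ethanol libraries held 13.8, 12.4 and 13.8 CPM, above all saline libraries (0.67 ± 0.26, adjusted p = 0.732), and the VEA 12.5 libraries held 29.7, 35.3 and 28.7 CPM. The rise over ethanol was 1.22 ± 0.25 at 12.5 (adjusted p = 0.000891) and 0.86 ± 0.25 at 6.25 (adjusted p = 0.0335), and the difference at 3.12 was 0.69 ± 0.25 (adjusted p = 0.107). The call at 6.25 was lost when any 1 of ethanol 12, 13 and 14 or VEA 63 and 64 was left out, with adjusted p between 0.0787 and 0.202, and with limma-voom (0.0733). The Ltbp2 rise from PG 826 (13.7, 11.7 and 10.5 CPM) to 1100 was 0.93 ± 0.25 (adjusted p = 0.0196) and was lost without PG 23, 25, 27 or 28 (adjusted p = 0.0702 to 0.127). Ltbp2 overlaps the antisense gene D030025P21Rik, which is also in the files, at its start.

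Fbln2 encodes fibulin-2, a glycoprotein found where elastic fibres meet basement membranes (chromosome 6, 91212455 to 91272540, plus strand). It was the 1 gene of the 10 that fell in any comparison, and its level was highest in the ethanol libraries, at 8.45, 7.34 and 12.8 CPM. VEA 6.25 libraries held 4.32, 4.08 and 3.37 CPM and VEA 12.5 libraries 4.63, 4.22 and 4.12 CPM, both wholly below ethanol. The differences were -1.28 ± 0.36 (edgeR adjusted p = 0.0281) and -1.14 ± 0.36 (adjusted p = 0.0343). At VEA 3.12, with 6.56, 7.63 and 2.87 CPM, the difference was -0.74 ± 0.35 (adjusted p = 0.243).

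The fall of Fbln2 depended on which control was used. Saline libraries held 4.64, 3.17 and 3.70 CPM, all below the ethanol libraries (ethanol against saline 1.31 ± 0.36, edgeR adjusted p = 0.592). Set against saline, an alternative chosen after seeing the data, the Fbln2 differences were 0.57, 0.032 and 0.17 at the rising VEA doses, and none passed. The fall at 6.25 was also lost without ethanol 12 or 14 or any 1 VEA 6.25 library (adjusted p = 0.0511 to 0.17), and that at 12.5 without ethanol 12 or 14 or any 1 VEA 12.5 library (adjusted p = 0.052 to 0.207) or with no filter on low counts (0.056). After PG 1100 Fbln2 was at 7.05, 6.98 and 6.01 CPM, above all saline libraries, and did not pass (0.80 ± 0.36, adjusted p = 0.205).

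Fbln5 encodes fibulin-5, which carries tropoelastin to microfibrils and binds lysyl oxidase-like enzymes (chromosome 12, 101746565 to 101819055, minus strand). It passed in no comparison. Saline libraries held 60.4, 44.2 and 45.2 CPM, PG 1100 libraries 73.5, 38.8 and 49.1 CPM, ethanol libraries 53.6, 58.9 and 56.7 CPM, and VEA 12.5 libraries 59.2, 57.2 and 57.6 CPM. Each dosed group overlapped its control. The interval of the Fbln5 difference ran from -0.24 to 0.45 for PG 1100 and from -0.30 to 0.38 for VEA 12.5, so changes beyond these bounds lie outside the 95% interval at this depth.

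Ltbp2, which passed in 4 comparisons, and Fbln5, which passed in none, lie on the same chromosome and are transcribed in the same direction, and the stretch before the start of each is shown to set a gene that moved beside one that did not. The RefSeq promoter table for GRCm38.p6 matched 4 of the 10 genes (Fbn1, Fbln2, Fbln5 and Ltbp2). Shown are the bases from 250 to 51 before the RefSeq start, 200 in all, for the entries where this stretch lies outside the member's own annotated gene, with Fbln5 at chr12:101819170-101819369 and Ltbp2 at chr12:84876542-84876741, both on the minus strand. The Ltbp2 stretch lies inside the antisense gene D030025P21Rik (84875769 to 84879755). Capitals mark a GC box, the letters GGGCGG on either strand.
Fbln5: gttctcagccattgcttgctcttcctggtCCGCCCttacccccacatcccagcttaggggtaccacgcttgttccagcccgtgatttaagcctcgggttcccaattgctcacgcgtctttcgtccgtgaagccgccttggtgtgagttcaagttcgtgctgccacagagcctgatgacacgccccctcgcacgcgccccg
Ltbp2: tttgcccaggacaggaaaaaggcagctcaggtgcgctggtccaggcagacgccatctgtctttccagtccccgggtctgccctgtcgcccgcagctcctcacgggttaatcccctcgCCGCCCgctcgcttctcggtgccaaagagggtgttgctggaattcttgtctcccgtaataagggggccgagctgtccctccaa

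Both stretches hold 1 GC box, which 24.6% of 32851 stretches of the same length and place hold. Neither holds the TATA box letters TATAAA (9.14% of stretches), the AP-1 letters TGANTCA (5.57%) or the SMAD binding letters GTCTAGAC (0.155%) on either strand. The GC content was 60.5% for Fbln5 and 62% for Ltbp2. The table's second Fbln5 entry, which lies inside the annotated gene and is not shown, holds none of the 4 motifs. A match or its lack in this window is a description of the letters only. The window stops 51 bases before the start, so a TATA box nearer the start would not be seen.

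Lox encodes lysyl oxidase, the copper enzyme that oxidises lysines of elastin and collagen to start crosslinks. It was the 1 member that passed against the control at every dose of both agents. Saline libraries held 17.3, 14.0 and 13.8 CPM, PG 826 libraries 21.9, 33.9 and 39.1 CPM, and PG 1100 libraries 57.8, 40.4 and 37.7 CPM. Both PG groups lay above saline, and they overlapped each other. The rise was 1.07 ± 0.20 at 826 (edgeR adjusted p = 0.00901) and 1.59 ± 0.20 at 1100 (adjusted p = 1.5e-06), and the step between the doses was 0.52 ± 0.20 (adjusted p = 0.122). The Lox call at 826 was lost without saline 8 or 10 or PG 23 or 25 (adjusted p = 0.0681 to 0.145), with limma-voom (0.0714) and with only the compared groups in the fit (0.12).

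Ethanol libraries held 19.4, 27.6 and 20.7 CPM of Lox, all above saline (0.59 ± 0.21, edgeR adjusted p = 0.631). VEA libraries held 35.9, 39.2 and 41.6 CPM at 3.12, 40.8, 50.6 and 40.8 CPM at 6.25, and 56.1, 41.4 and 50.6 CPM at 12.5. All 9 lay above every ethanol library. The rises were 0.78 ± 0.20 (adjusted p = 0.0134), 0.96 ± 0.20 (adjusted p = 0.00202) and 1.13 ± 0.20 (adjusted p = 0.000138) at the rising doses. Neighbouring VEA doses overlapped, and 12.5 against 3.12 gave an interval of -0.05 to 0.74. The Lox call at 3.12 was lost without ethanol 12 or 14 or VEA 59 (adjusted p = 0.0602 to 0.0832).

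Loxl1 encodes a lysyl oxidase that is targeted to elastic fibres through fibulin-5 (chromosome 9, 58287738 to 58313186, minus strand). Saline libraries held 57.5, 32.4 and 40.5 CPM, PG 826 libraries 59.1, 66.6 and 79.7 CPM, and PG 1100 libraries 90.4, 62.2 and 68.8 CPM. Both PG groups lay above saline. The rise passed at 1100 (0.76 ± 0.18, edgeR adjusted p = 0.00441) and not at 826 (0.65 ± 0.18, adjusted p = 0.149), and the doses did not differ by the test (0.11 ± 0.17, interval -0.24 to 0.46). Saline 6 and 8 mattered here: without saline 8 the call at 1100 was lost (0.59, adjusted p = 0.0542), as it was with only the compared groups in the fit (0.0595), and without saline 6 the difference at 826 passed (0.91, adjusted p = 0.0139). After VEA, Loxl1 was higher than in ethanol by 0.33 ± 0.18, 0.48 ± 0.18 and 0.41 ± 0.18, and no dose passed (adjusted p = 0.305, 0.105 and 0.144). This depended on the control. Against saline, an alternative chosen after seeing the data, Loxl1 rose at every VEA dose (edgeR adjusted p = 0.0294, 0.00652 and 0.00716).

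Loxl2 encodes a lysyl oxidase best known for crosslinking collagen IV of basement membranes (chromosome 14, 69609068 to 69695834, plus strand). Saline libraries held 17.8, 14.1 and 12.5 CPM, PG 826 libraries 18.3, 22.0 and 21.1 CPM, and PG 1100 libraries 57.9, 36.5 and 29.5 CPM. The PG 1100 libraries lay above both. The rise was 1.48 ± 0.22 over saline (edgeR adjusted p = 1.34e-05) and 1.01 ± 0.21 over PG 826 (adjusted p = 0.00242). VEA 12.5 libraries, at 24.0, 24.7 and 21.4 CPM, overlapped ethanol, at 15.5, 18.1 and 22.3 CPM, and the difference was 0.32 ± 0.22 (adjusted p = 0.413). At 3.12 and 6.25 the differences were 0.46 ± 0.22 and 0.23 ± 0.22 (adjusted p = 0.24 and 0.62). With saline as the control, a choice made after seeing the data, Loxl2 rose at VEA 3.12 and 12.5 (edgeR adjusted p = 0.0239 and 0.0455). It did not pass at 6.25 (adjusted p = 0.13).

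**Figure D2:**
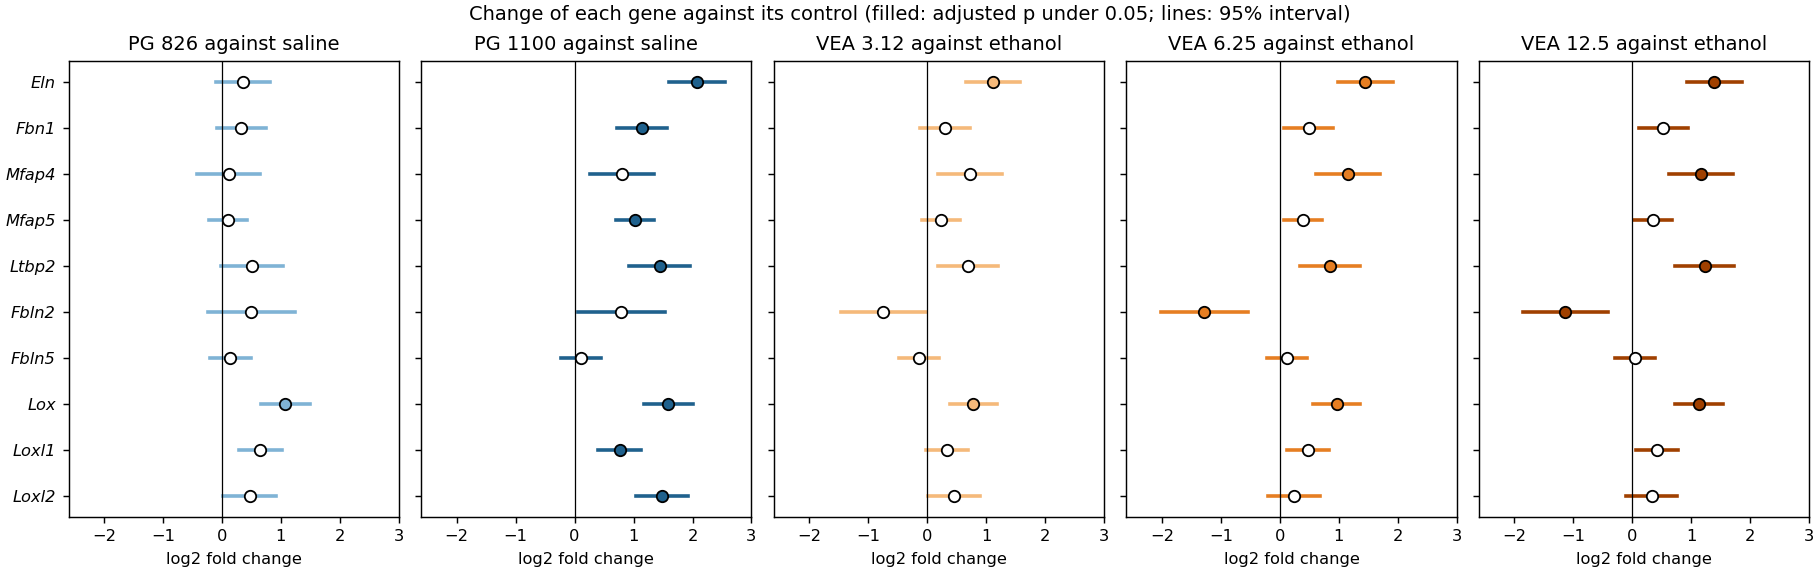
Log2 fold change of each gene (horizontal axis) against its control in 5 panels, 1 per dosed group, with lines for the 95% interval and filled points for an adjusted p under 0.05. PG 1100 has 7 filled points, all to the right of 0, and Fbln2 is filled to the left of 0 at VEA 6.25 and 12.5.

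The effect of the highest VEA dose was set against that of the higher PG dose, each relative to its own control, to ask whether the agents differed in these genes. No member passed by edgeR or limma-voom, where 0.19% of all genes did by edgeR, and 5 of the 10 had an unadjusted p under 0.05 (Eln, Fbn1, Fbln2, Loxl2 and Mfap5). The VEA effect was the lower in 9 of the 10, all but Mfap4 (0.35 ± 0.36, adjusted p = 0.912), with a median of -0.54. At an unadjusted p under 0.05 the share of all genes was 7.89%. With saline as the control of both agents the VEA value was the lower in 6 of the 10, and Lox (1.71 after VEA 12.5 and 1.59 after PG 1100), Ltbp2 (1.89 and 1.44), Mfap4 (0.91 and 0.81) and Fbln5 (0.21 and 0.11) were then higher after VEA, differences that were not tested. For Fbln2 the difference was -1.94 ± 0.51, and ethanol stood 1.31 above saline. The intervals were -1.33 to -0.04 for Eln, -1.14 to -0.22 for Mfap5, -1.78 to -0.54 for Loxl2 and -1.03 to 0.11 for Lox. DESeq2 called 2 of them lower, Fbln2 (-1.93, adjusted p = 0.0209) and Loxl2 (-1.15, adjusted p = 0.0496), and edgeR called Loxl2 when PG 1100 library 30 was left out (-1.35, adjusted p = 0.0354). The agents were given at different doses, so the comparison is between these groups and not between equal exposures.

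Ethanol against saline changed none of the 10 by edgeR, where 0% of genes tested passed, nor by DESeq2 or limma-voom. At an unadjusted p under 0.05 there were 3, Fbln2, Lox and Ltbp2, each higher in ethanol, where 6.06% of all genes had such a p. Every ethanol library lay above every saline library for 4 of the 10 (these and Mfap5), against 4.69% of genes. With saline as the control of VEA, 5, 6 and 7 of the 10 rose at 3.12, 6.25 and 12.5 and none fell, where 5.47%, 5.14% and 10.3% of all genes passed. Ltbp2 then rose at 3.12 as well (1.36 ± 0.26, edgeR adjusted p = 0.000762).

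Between VEA doses none of the 10 passed, with 0%, 0.00679% and 0% of all genes passing for 6.25 against 3.12, 12.5 against 6.25 and 12.5 against 3.12. The numbers with an unadjusted p under 0.05 were 0, 0 and 1, the last being Ltbp2 (0.54 ± 0.24, edgeR adjusted p = 0.866), where 4.12%, 8.12% and 5.44% of all genes had such a p, and DESeq2 and limma-voom called none. For Ltbp2 the VEA 3.12 libraries, at 18.6, 18.8 and 27.2 CPM, all lay below the VEA 12.5 libraries. Upward separation was found for Fbln5 from 3.12 to 6.25, against 4.78% of genes, and for 3 of the 10 from 3.12 to 12.5 (Fbln5, Ltbp2 and Mfap4), against 7.2%.

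Of 17 listed partners of elastic fibre assembly 16 were tested, and after PG 1100 2 rose and 1 fell, where 7.31% of all genes passed. Of the partners 9 were higher and 7 lower (median 0.06). Vcan, the large proteoglycan versican, rose by 1.43 ± 0.32 (edgeR adjusted p = 0.0026), and Emilin1, which sits at the elastin and microfibril interface, rose by 0.77 ± 0.20 (adjusted p = 0.0101). Efemp1, which encodes fibulin-3, fell by 0.66 on the log2 scale (adjusted p = 0.0245). Between the PG doses Vcan was higher at 1100 (1.67 ± 0.32) and Adamtsl4, a fibrillin-binding protein, was lower (-0.79 ± 0.20, adjusted p = 0.014), where 5.55% of all genes passed. At the rising VEA doses 5.51%, 5.76% and 9.71% of all genes passed. The 1 partner that passed after VEA was Efemp2, which encodes fibulin-4, the fibulin that brings lysyl oxidase to tropoelastin. It rose by 1.17 ± 0.29 at 3.12 (adjusted p = 0.0119) and 1.11 ± 0.29 at 6.25 (adjusted p = 0.0177), and was 0.81 higher at 12.5 without passing (adjusted p = 0.0745).

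Of 14 genes for other crosslinking enzymes and their support, all tested, 2 rose after PG 1100 and none fell (median 0.35), where 7.31% of all genes passed. Fn1, fibronectin, a scaffold for lysyl oxidase processing, rose by 2.04 ± 0.21 (edgeR adjusted p = 1.31e-07), and Slc31a1, a copper importer, by 0.49 ± 0.15 (adjusted p = 0.0379). Between the PG doses 3 of them were higher at 1100, where 5.55% of all genes passed: Fn1 (1.28 ± 0.20), the copper chaperone Atox1 (0.56 ± 0.14) and the collagen-binding proteoglycan Fmod (1.76 ± 0.54). Fn1 also rose at each VEA dose, by 0.98 ± 0.20, 1.00 ± 0.20 and 1.34 ± 0.20 (adjusted p = 0.0028, 0.00254 and 3.29e-05). Atp7a, the pump that loads copper onto secreted enzymes, fell by 0.72 on the log2 scale at VEA 3.12 and by 0.73 at 6.25 (adjusted p = 0.0119 and 0.0108). At 12.5 Bmp1, the protease that releases active lysyl oxidase, rose by 0.87 ± 0.28 (adjusted p = 0.0411), and Plod2, a lysyl hydroxylase of collagen, fell by 0.50 (adjusted p = 0.0283).

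More of the enzymes that cut elastin, and their inhibitors, passed. Of 20 listed, 16 were tested, and 7 rose and 1 fell after PG 1100 (median 1.45), where 7.31% of all genes passed. Between the PG doses 8 were higher at 1100, where 5.55% of all genes passed. At the rising VEA doses 4, 4 and 8 rose and none fell, where 5.51%, 5.76% and 9.71% of all genes passed. Elane, which encodes neutrophil elastase, Ctsg and Mmp7 had no count in any library and were not tested. Mmp12, macrophage elastase, rose by 3.52 ± 0.46 after PG 1100 and by 4.31 ± 0.47, 4.41 ± 0.47 and 4.45 ± 0.47 at the VEA doses (edgeR adjusted p = 4.3e-06 at 12.5). Ctsk, a cathepsin that degrades elastin and collagen, rose by 3.48 ± 0.39, 3.31 ± 0.39 and 3.72 ± 0.39 at the VEA doses. Its level was 94.1 ± 60.3 CPM in PG 1100 and 21.7 ± 1.5 CPM in saline. Mmp2, gelatinase A, rose by 1.69 ± 0.21 after PG 1100 and by 1.06 ± 0.21 and 0.95 ± 0.21 at VEA 6.25 and 12.5. Inhibitors were among the risers: Timp1 rose by 2.19 ± 0.52 at VEA 3.12 and 2.02 ± 0.52 at 6.25, Slpi by 1.07 ± 0.22 at 3.12 and 1.16 ± 0.22 at 12.5, and Serpina3n by 1.95 ± 0.27 after PG 1100. At most 4 genes are named per comparison, so a dose not named for a gene is not a dose without a rise. Timp1 stood at 45.9 ± 9.1 CPM in VEA 12.5 and 8.0 ± 3.3 CPM in ethanol. It stood at 44.3 ± 10.0 CPM in PG 1100 and 9.6 ± 1.3 CPM in saline. The gene that fell after PG 1100 was Mmp9 (-1.09), which was named after its value was seen.

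TGF-beta drives elastin and lysyl oxidase genes in many cells, and 14 of 16 listed genes of its activation and response were tested. After PG 1100 3 rose and 1 fell (median 0.32), where 7.31% of all genes passed. Tgfbi, a common response gene, rose by 1.03 ± 0.25 (edgeR adjusted p = 0.0107), the ligand Tgfb3 by 0.58 ± 0.18 (adjusted p = 0.0466) and the receptor Tgfbr2 by 0.53 ± 0.16 (adjusted p = 0.0425). The co-receptor Tgfbr3 fell by 1.30 on the log2 scale (adjusted p = 6.73e-05). At each VEA dose 1 gene rose and none fell, where 5.51%, 5.76% and 9.71% of all genes passed. The gene was Tgfbi each time, by 1.40 ± 0.25, 0.99 ± 0.25 and 1.61 ± 0.25. None of the 4 lists had a gene that passed after PG 826 or in ethanol against saline by edgeR. At an unadjusted p under 0.05 there were 2 partners, 2 crosslinking genes, 7 elastases or inhibitors and 1 TGF-beta gene after PG 826, where 9.47% of all genes had such a p. In ethanol there were 2, 0, 4 and 1, where 6.06% of all genes did.

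**Figure D3:**
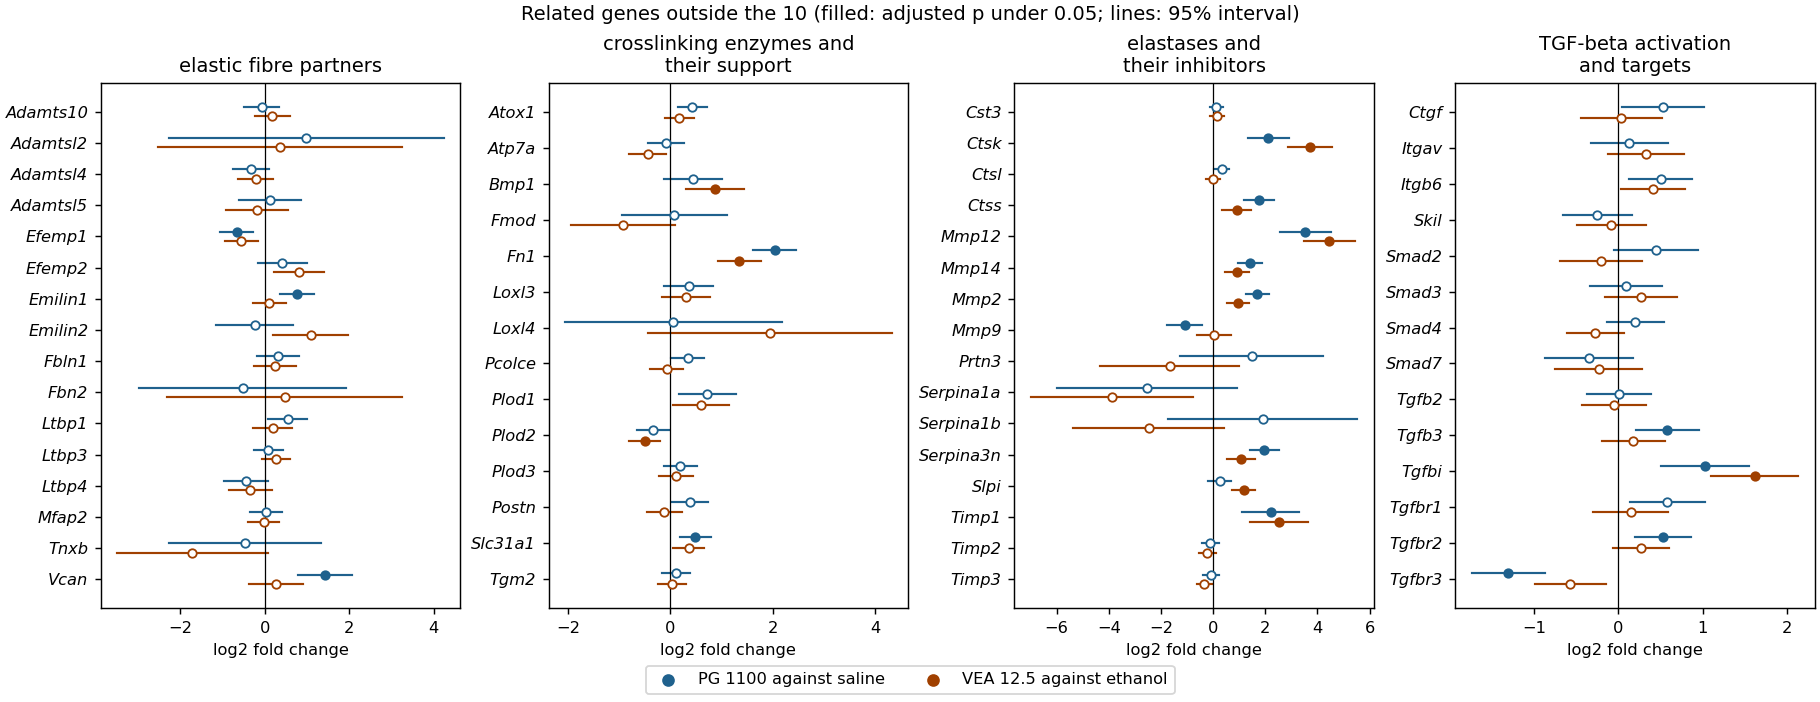
Log2 fold change (horizontal axis) of the tested genes of 4 related lists for PG 1100 against saline and VEA 12.5 against ethanol, with lines for the 95% interval and filled points for an adjusted p under 0.05. Mmp12 and Ctsk are filled far to the right for both agents, and Vcan is filled for PG 1100 alone, a difference between agents that the plot does not test.

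The genes whose pattern over the 21 libraries was nearest to each member were found by the root mean square difference of centred log2 CPM among 10598 genes averaging 5 CPM or more. Nearest to Eln were Igf1 (0.26), Adamts2 (0.26) and Col1a1 (0.31), where the median gene stood 0.84 away. Nearest to Lox were Mmp14 (0.27), Socs3 (0.30) and Col1a1 (0.30), and nearest to Ltbp2 were Lipa, Mmp14 and Lat2 (0.31 to 0.32). Nearest to Fbn1 were Col6a3, Col1a2 and Rab34 (0.24 to 0.26), and nearest to Loxl2 were Col4a1 (0.23), Col4a2 (0.25) and Napsa (0.26). Mfap4 lay nearest Ppic, Matn4 and Col3a1 (0.31 to 0.32), Mfap5 nearest Fstl1, Tgfb3 and H2-Aa (0.20 to 0.24), and Loxl1 nearest Bgn, Ptprs and Plec (0.17 to 0.18). Fbln2 lay nearest Mr1, Tcea3 and Prkaa1, at 0.36 to 0.38 the loosest of these matches. Collagen genes were thus among the nearest 3 for Eln, Lox, Fbn1, Loxl2 and Mfap4, in libraries that share their depth and their groups, and the measure carries no test.

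Markers of several cell types moved with the groups, where 7.31% of all genes passed after PG 1100 and 9.71% after VEA 12.5. The summed level of 11 fibroblast markers was 3150 to 3315 CPM in saline and 2654 to 2921 CPM in PG 1100, and 3031 to 3486 CPM in ethanol and 2347 to 2814 CPM in VEA 12.5. The sum was lower in both dosed groups and its direction came from Inmt, which was 1758 to 1943 CPM in saline and 736 to 1069 CPM in PG 1100. Without Inmt, left out after seeing the data, the other markers summed to 1226 to 1556 CPM in saline and 1835 to 2185 CPM in PG 1100, which turns the direction. They summed to 1277 to 1616 CPM in ethanol and 1492 to 1814 CPM in VEA 12.5, which overlap. Of these others the collagen gene Col1a2 had the highest mean over all libraries, and it stood at 381 ± 142 CPM in saline and 903 ± 198 CPM in PG 1100. Pdgfra, Dcn and Col13a1 had lower means in PG 1100 than in saline, so the turn was not shared by all fibroblast markers. After PG 1100 3 fibroblast markers rose and 1 fell (7 of 11 higher, median 0.21), and after VEA 12.5 1 rose and 3 fell (3 of 11 higher, median -0.27). The sum of 10 smooth muscle and pericyte markers was 453 to 639 CPM in saline and 719 to 994 CPM in PG 1100, where 2 rose. It was 381 to 761 CPM in ethanol and 328 to 380 CPM in VEA 12.5, where 3 fell. Without Acta2, left out after seeing the data, the sums overlapped between saline (257 to 344 CPM) and PG 1100 (340 to 474 CPM). They stayed apart between ethanol (234 to 414 CPM) and VEA 12.5 (211 to 232 CPM). All 10 markers were higher after PG 1100, and 9 of 10 were lower after VEA 12.5. The smooth muscle and pericyte sum therefore stood higher with Eln after PG 1100, a separation that rested on Acta2. It stood lower beside a higher Eln after VEA 12.5.

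The macrophage sum (10 markers) was 1879 to 3424 CPM in saline and 4241 to 7627 CPM in PG 1100, and 2484 to 2854 CPM in ethanol and 3836 to 4044 CPM in VEA 12.5, with 8 of 10 markers rising for each agent. The endothelial sum (8 markers) was 1369 to 1722 CPM in saline and 756 to 1094 CPM in PG 1100, and 1550 to 1719 CPM in ethanol and 1123 to 1183 CPM in VEA 12.5. Lung epithelial markers summed to 73604 to 93423 CPM in saline and 52317 to 67853 CPM in PG 1100, and to 69723 to 91209 CPM in ethanol and 48148 to 51312 CPM in VEA 12.5. Macrophage sums were higher and endothelial sums lower in both dosed groups, with no overlap with the control. The epithelial sum was set by Scgb1a1, a club cell protein, at 47441 to 62601 CPM in saline and 20729 to 27850 CPM in PG 1100. Without it the epithelial sums overlapped in both comparisons, at 26162 to 34548 CPM in saline and 31021 to 44597 CPM in PG 1100, and 24464 to 28858 CPM in ethanol and 23848 to 25560 CPM in VEA 12.5. Of the 9 epithelial markers 3 rose and 3 fell after PG 1100, and 2 rose and 3 fell after VEA 12.5, with Sftpd, a surfactant protein of alveolar type II cells, rising in both (1.16 ± 0.15 and 1.28 ± 0.15, edgeR adjusted p = 2.68e-06 and 3.07e-07). Mesothelial sums overlapped between saline (214 to 300 CPM) and PG 1100 (205 to 351 CPM). They were 225 to 287 CPM in ethanol and 197 to 221 CPM in VEA 12.5. Their highest marker, Krt19, was at 177 ± 24.9 CPM in saline and 229 ± 64.0 CPM in PG 1100. Msln also had a higher mean in PG 1100, and Lrrn4, Upk3b, Wt1 and Bnc1 had lower means. Lrrn4 was at 30.1 ± 3.0 CPM in saline and 15.1 ± 4.6 CPM in PG 1100. Without Krt19, left out after seeing the data, the sums overlapped between saline (59.99 to 96.18 CPM) and PG 1100 (48.70 to 77.27 CPM). They were 82.5 to 91.8 CPM in ethanol and 42.4 to 48.8 CPM in VEA 12.5. Cardiac muscle markers summed to 243 to 350 CPM in saline and 138 to 210 CPM in PG 1100, and to 165 to 383 CPM in ethanol and 93.6 to 121 CPM in VEA 12.5, with all 7 lower and 1 falling in each. The part of these shifts in the results of the 10 genes was not tested, and in RNA from whole lung fewer cells of a type and less RNA per cell cannot be told apart. Cartilage of the airways also makes matrix, and of its markers Matn1 had no count in any library, Comp had 1 count in all, and Col2a1, Acan and Col9a1 were at 0 in 19, 17 and 17 of the 21 libraries. Sox9 was the exception, with 476 counts in all and none of the libraries at 0.

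**Figure D4:**
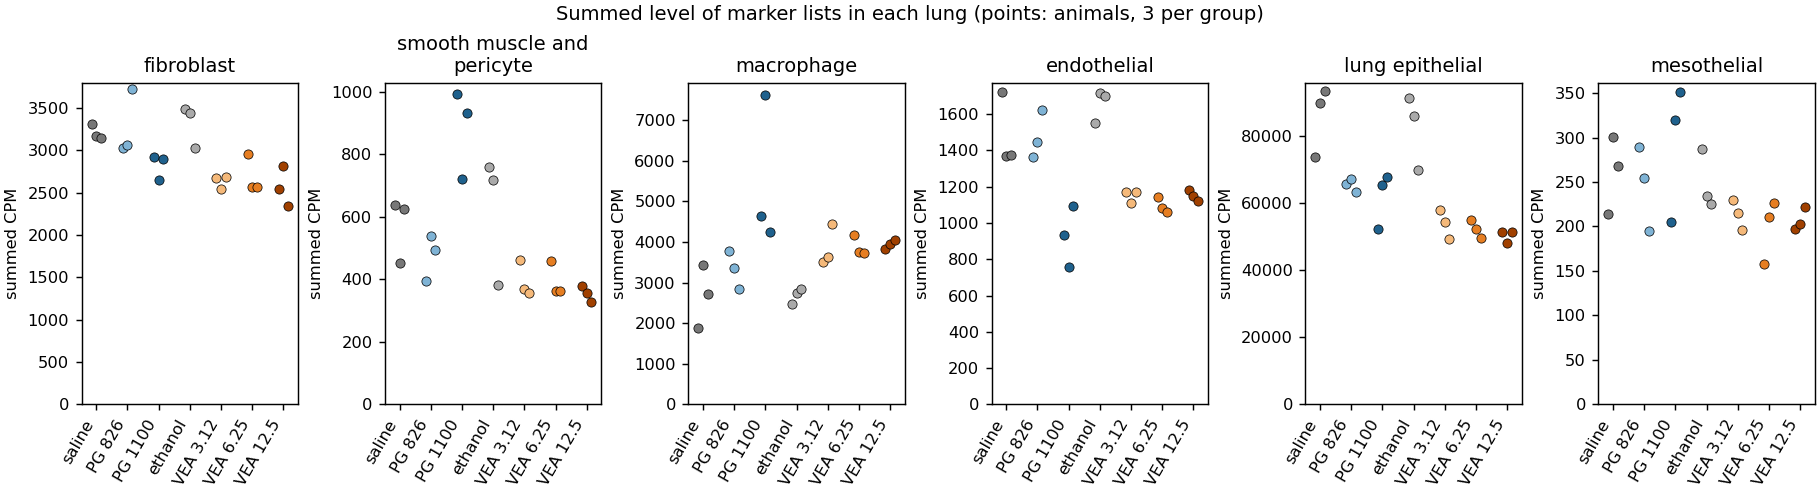
Summed level of 6 marker lists (vertical axis, CPM) in each library by group (horizontal axis), with each point 1 library. The smooth muscle and pericyte sum is 719 to 994 CPM in PG 1100 and 328 to 380 CPM in VEA 12.5. The macrophage sum is 3519 CPM or more in all PG 1100 and VEA libraries, and 2845 to 3789 CPM in PG 826, which reaches into that range.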

How the data were processed

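RNA from 21 mouse lungs was sequenced as 3′ end tags, 1 library per lung. The authors deposited counts per gene symbol, with 23282 rows per library, checked here to be whole numbers, and counts of repeated symbols were summed. The submitters' processing notes name Bowtie2, bedtools and mm10 without versions. The annotation, strand setting and counting rule are not given in the sources used here. Groups come from the treatment labels. The 10 genes and all lists were chosen with earlier results of these data known.

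Counts were analysed in R 4.3.3 with edgeR 4.0.16 (filterByExpr by group, TMM, 1 robust quasi-likelihood fit of 21 libraries with 14 residual degrees of freedom, Benjamini-Hochberg over 14727 genes, threshold 0.05) in 11 comparisons. The SE is the absolute log2 fold change over the square root of F. The whole procedure was tested on simulated counts. In these libraries 5 CPM equals 41.1 to 64.8 counts. All 10 members are named, and of each related list at most 4 genes per comparison, those with the smallest p among genes that passed. Nearest genes use log2 CPM with a prior count of 2, and 3 are named per member that passed anywhere.

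Alternatives were RLE scaling, DESeq2 1.42.0, limma-voom (limma 3.58.1), no low-count filter, only the compared groups in the fit, and leaving out each library. Chosen after seeing the data were fits without the 3 libraries that detected fewest genes (saline 8, ethanol 13, VEA 65), without Rn45s and 10 haemoglobin symbols, with saline as the control of VEA, and marker sums without their highest marker. Positions are from GENCODE M21 (GRCm38), and promoters from RefSeq (GRCm38.p6). The main results use all 21 libraries. A gene of the TGF-beta list is not reported here and is not in its counts.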

Additional observations from a re-analysis of the deposited data

How the results depend on the processing

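Of 110 results (10 genes in 11 comparisons), 25 passed and 15 of these passed under every alternative, while 15 of the 85 that did not pass did so under at least 1. With saline as the control of VEA, Fbln2 turned from lower to 0.032 at 6.25 and 0.17 at 12.5, and 5 members were called at 3.12 in place of 2. The number of members called after PG 826, 1 by edgeR, was 0 with limma-voom, 0 with only the compared groups, 0 without the 3 libraries that detected fewest genes, 2 with no filter, and 0 to 2 on leaving out each library. At VEA 3.12 it was 1 to 2 on leaving out each library. At VEA 6.25, with 5 called, it was 3 without those 3 libraries and 3 to 4 on leaving out each library. At VEA 12.5, with 5 called, it was 8 with only the compared groups. For the VEA effect minus the PG effect, with none called, it was 2 by DESeq2, 1 with no filter and 0 to 1 on leaving out each library. The cause was not tested.

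Over all genes the count called ranged across alternatives from 5 to 162 for PG 826 (20 by edgeR), 444 to 1343 for PG 1100 (1077), 259 to 1458 between the PG doses (818), 434 to 1101 for VEA 3.12 (812), 316 to 1113 for VEA 6.25 (849), 873 to 2054 for VEA 12.5 (1430), 0 to 17 for ethanol against saline (0), and 12 to 198 for the difference between agents (28). Between VEA doses it was 0 to 7, 0 to 161 and 0 to 60, against 0, 1 and 0 by edgeR. The PG 826 count was 5 without saline 8 and 120 without saline 6, and the count between the PG doses was 259 without PG 28 and 1458 without PG 27. No paired analysis was possible because no library number is shared between groups. With 3 libraries per group and 26 to 119 counts of Fbln2 in a library, this gene has the widest intervals of the 10.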
